A study of Mus musculus with 16 samples.

Results

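Regulatory T cells (Treg) from the uterus of non-pregnant mice were compared with Treg from the para-aortic lymph nodes, the nodes that drain the uterus, also of non-pregnant mice. The labels assigned 8 of the 16 libraries of the series to this comparison, 4 of uterine Treg and 4 of node Treg, and each carries the replicate number 1, 2, 3 or 5. All mice were of the BALB/c background and carried the Foxp3IRES-GFP reporter, which makes cells that express Foxp3 fluoresce green. The labels name no treatment and no age. The titles describe the uterine cells as CD4+Foxp3+CD25- and the node cells as CD4+Foxp3+CD25+, so the tissue and the CD25 gate changed together and their parts in any difference cannot be told apart. Each library compared came from 1 pool of 20 mice, and p-values measure the spread between pools. Both groups were sequenced in batch 2. The remaining 8 libraries were sequenced in the other batch. Of these, 4 were of uterine Treg from early pregnancy, in pools of 3 to 8 mice. The other 4 were of conventional CD4+ T cells (CD4conv, Foxp3-) from the non-pregnant uterus, in pools of 20. All 8 entered the choice of the genes tested, the scaling and the estimate of the spread between replicates. That spread, and so each p-value, is thus not between pools of 20 mice alone. With the filter against background (described below) taken over the 8 libraries compared, 4424 genes were tested, 42 were higher and 17 lower. The called genes Fcer1g, Tyrobp and Fosl2 were not among those tested. The remaining 8 libraries still entered the filter on low counts, the scaling and the spread of that fit.

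Treg are CD4+ T cells that restrain other immune cells, and the transcription factor Foxp3 maintains their identity. Treg that circulate through lymph nodes enter them with the help of the chemokine receptor Ccr7, whereas Treg of tissues such as skin, fat and gut are known for other homing receptors and integrins, for effector molecules and for the receptor of interleukin 33. CD25, encoded by Il2ra, is the alpha chain of the interleukin 2 receptor and is carried by most, though not all, Treg.

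The libraries of both groups overlapped in depth and composition. Total counts were 3.20 ± 1.64 M (1e6 counts, SD, n = 4) in uterine Treg and 3.52 ± 2.10 M in node Treg. Counts in odorant and pheromone receptor genes, which are silent in T cells, gave an estimated background of 24.3 ± 11.9% of counts in uterine Treg and 22.6 ± 12.7% in node Treg, so 4719 expressed protein-coding genes, each above 5 times that background, lead the results. The number of genes detected was 31916 ± 5842 in uterine and 37730 ± 1177 in node Treg (exact permutation test, two-sided, p = 0.0857, adjusted 0.514 over 6 measures). The exact p of the other 5 measures was 0.486 or higher, and the smallest that 70 arrangements allow is 0.0286. Node libraries resembled each other with Spearman correlations over expressed genes of 0.871 to 0.968. Uterine libraries correlated with each other at 0.737 to 0.875 and with node libraries at 0.703 to 0.902, ranges that overlap. Uterine Treg 1 and 5 lay at opposite ends of the first principal component, at -55.9 and 39.6. Without both, 18 of the 61 genes called below kept the call, and the fold of Fcer1g, Egr1, Penk and Eno3 moved by over 1.5 times. These 4 values are given beside the genes.

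In the edgeR quasi-likelihood test with Benjamini-Hochberg adjustment, 61 of the 4719 expressed genes differed between uterine and node Treg at an adjusted p under 0.05, which is 1.29% of those tested. Of these, 44 were higher in uterine Treg (0.932%) and 17 were lower (0.36%). The higher genes included calcium-binding S100 proteins, the integrin chains Itgb1 and Itga4, the chemokine receptors Cxcr3 and Ccr2 and the nuclear receptor Rora. The lower genes included Il2ra, Ccr7, Ccr8, Tnfrsf9, Gpr83, Penk and the phosphatase Dusp2. The log2 fold change of the higher genes ran from 0.93 (Fryl) to 4.73 (Fcer1g) and that of the lower genes from -1.04 (Vav1) to -4.21 (Eno3), against a median over all expressed genes of 0.05. In 60 of the 61 genes the 4 uterine libraries did not overlap with the 4 node libraries, the exception being Crip2. Such separation occurred in 475 expressed genes, 10.1% of them (251 higher, 5.32%, and 224 lower, 4.75%).

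**Figure D1:**
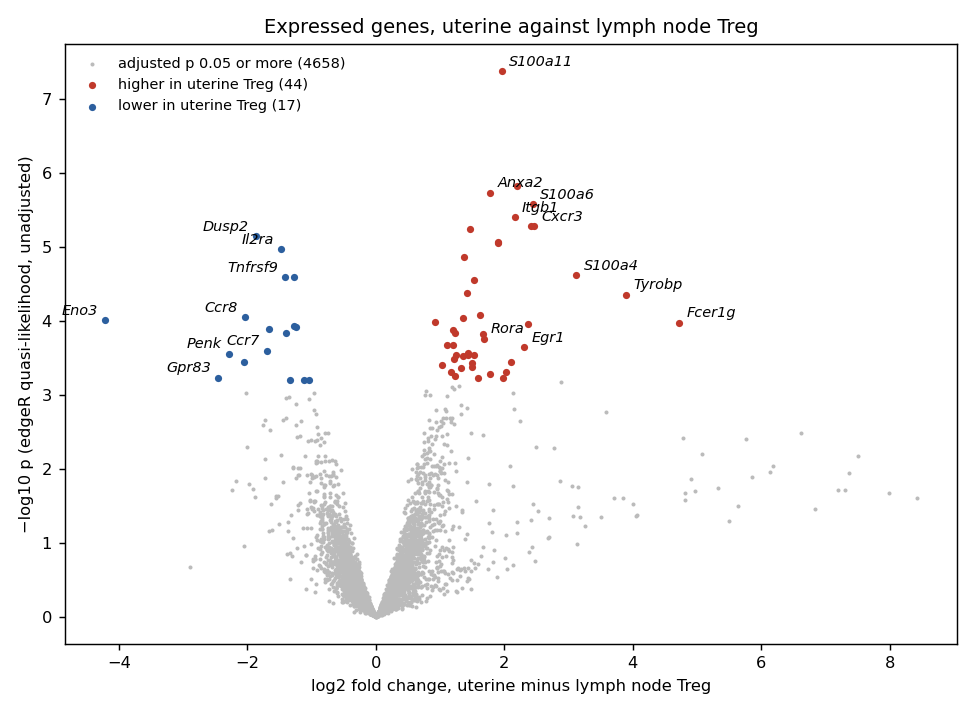
Each point is an expressed gene, with the log2 fold change of uterine over lymph node Treg on the x axis and the unadjusted edgeR p as −log10 on the y axis. The 44 genes higher in uterine Treg (red) and the 17 lower (blue) are those with an adjusted p under 0.05, and S100a11 has the lowest p.

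The number of genes past the threshold depended on single libraries and on the genes tested. Leaving out 1 library left 22 higher and 9 lower genes without node Treg 1, 15 and 4 without node Treg 2, 16 and 5 without node Treg 3, and 25 and 7 without node Treg 5. It left 21 and 7 without uterine Treg 1, 16 and 7 without uterine Treg 2, 20 and 6 without uterine Treg 3, and 46 and 16 without uterine Treg 5. All 61 genes kept their sign in these 8 fits, and 18 also stayed past the threshold in each of them. These 18 were S100a4, S100a6, S100a11, Anxa2, Cxcr3, Itgb1, Cdc25b, Myo1f, Ppil1, Slc4a7, Chd7, Fam129a, Slamf6 and Glrx among the higher genes and Il2ra, Tnfrsf9, Dusp2 and Tbc1d4 among the lower. The other 43 lost the call without at least 1 library, and H1f0, Tkt, Vav1, Rpl15, Ptpn6 and Gpr83 lost it in all 8 fits.

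Over the whole table of 30096 genes, most of them near background, edgeR called 0 genes. There, 396 genes were higher and 509 lower at an unadjusted p under 0.05, the lowest adjusted p was 0.599, and DESeq2 called 12 higher and 16 lower. In simulated counts this fit recovered 0% of 2-fold and 4-fold and 16.7% of 8-fold changes, so its 0 calls do not show that the genes were equal. All 61 genes had the same sign in that fit. Scaling the libraries on the whole table moved the median log2 fold change of the expressed genes from 0.05 to -0.22 and left 0 calls among them, so each direction given here is relative to the other expressed genes.

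**Figure D2:**
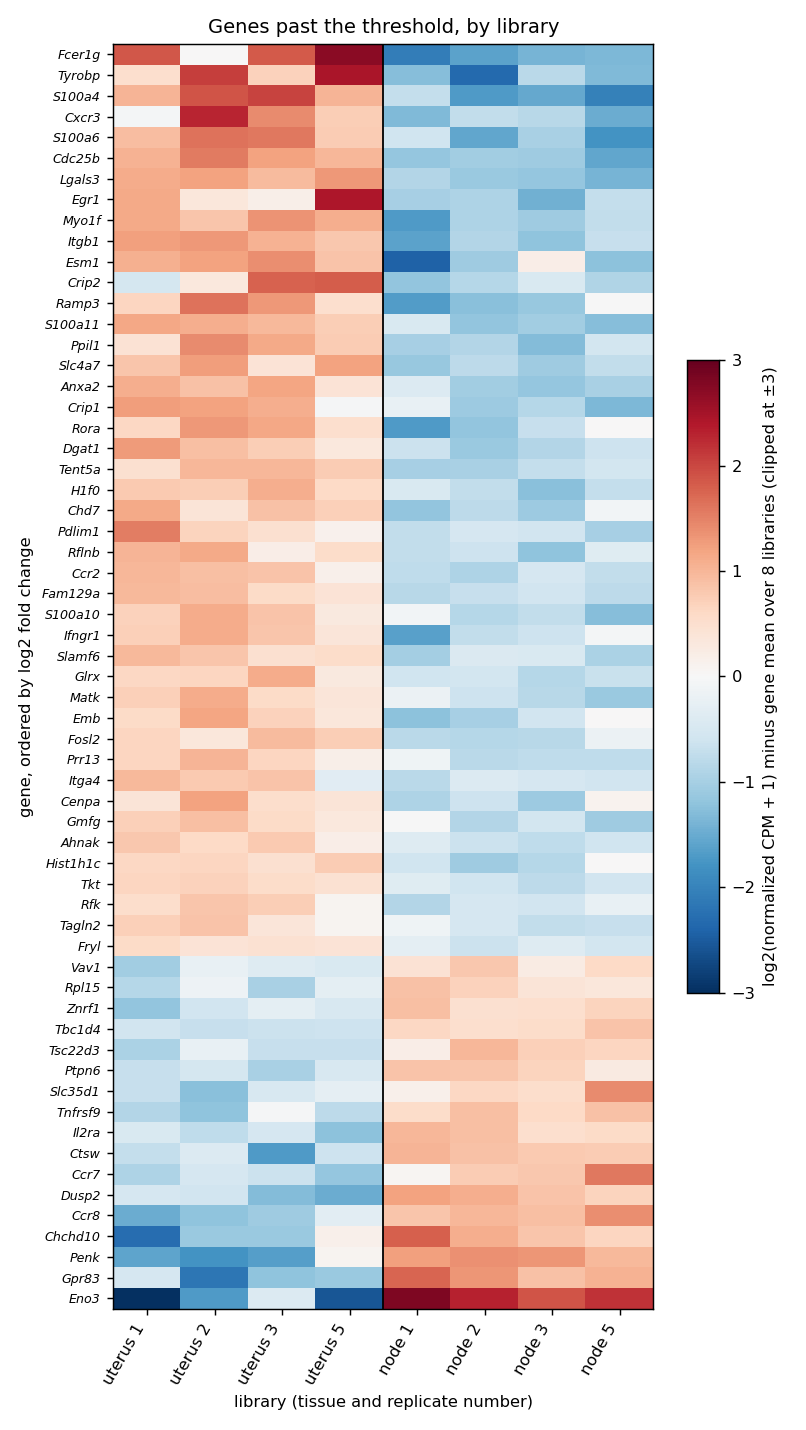
Rows are the 61 genes past the threshold, ordered by log2 fold change, and columns are the 4 uterine and 4 node libraries. Colour gives the log2 of normalized counts per 1e6 (CPM) plus 1, minus the gene's mean over the 8 libraries. Uterine libraries lie above node libraries in the upper 44 rows and below them in the lower 17, with the exception of an overlap in Crip2.

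The genes that define Treg were present on both sides. Levels are normalized counts per 1e6 counts of the expressed genes (CPM), listed for libraries 1, 2, 3 and 5 in that order. Foxp3 was at 560, 922, 616 and 433 CPM in uterine Treg and at 557, 911, 649 and 1038 CPM in node Treg, so the groups overlapped. Its log2 fold change was -0.32 (95% confidence interval -1.20 to 0.57, adjusted p = 0.875). In CD4conv, sorted as Foxp3-negative, the mean was 2.64 CPM. The coreceptor gene Cd4 had a log2 fold change of 0.34 (-0.48 to 1.16). The inhibitory receptor gene Ctla4 was at 0.24 (-0.48 to 0.97) and Ikzf2, which encodes the transcription factor Helios, at 0.24 (-0.27 to 0.75). These intervals do not show that the genes were equal in the 2 groups.

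Il2ra, the gene of the CD25 protein by which the gates differed, was lower in uterine Treg. It was at 178, 144, 174 and 104 CPM in the uterine and at 493, 460, 351 and 365 CPM in the node libraries. The highest uterine library thus lay below the lowest node library. The log2 fold change was -1.48 (SE 0.25, adjusted p = 0.00421), while CD4conv averaged 34.2 CPM. Il2rb, the beta chain of the same receptor, was at 593 ± 169 CPM (SD, n = 4) in uterine and 1080 ± 127 CPM in node Treg without overlap, but did not pass the test (log2 fold change -0.86, adjusted p = 0.252).

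Of 20 genes listed as core Treg genes, 15 were expressed. Of these, 0 were higher and 2 lower, Il2ra and Gpr83, where 0.932% of all expressed genes were higher and 0.36% lower. Il2ra encodes the protein by which the gates differed. Gpr83, a G protein-coupled receptor known as a Treg-associated gene, was at 81.6, 25.3, 49.8 and 53.8 CPM in uterine and at 396, 295, 216 and 242 CPM in node Treg. Every uterine library was below every node library, and the log2 fold change was -2.46 (SE 0.59, adjusted p = 0.0479), a call lost on leaving out any library. The median of the 15 genes was -0.37, beside 0.05 over all expressed genes. Among the 13 that missed the threshold, Izumo1r, which encodes folate receptor 4, was at 328 ± 128 CPM in uterine and 766 ± 249 CPM in node Treg (log2 fold change -1.22, adjusted p = 0.142). Tnfrsf4, the costimulatory receptor OX40, was at 456 ± 68.6 and 889 ± 53.3 CPM (-0.96, adjusted p = 0.259). Neither gene's groups overlapped.

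**Figure D3:**
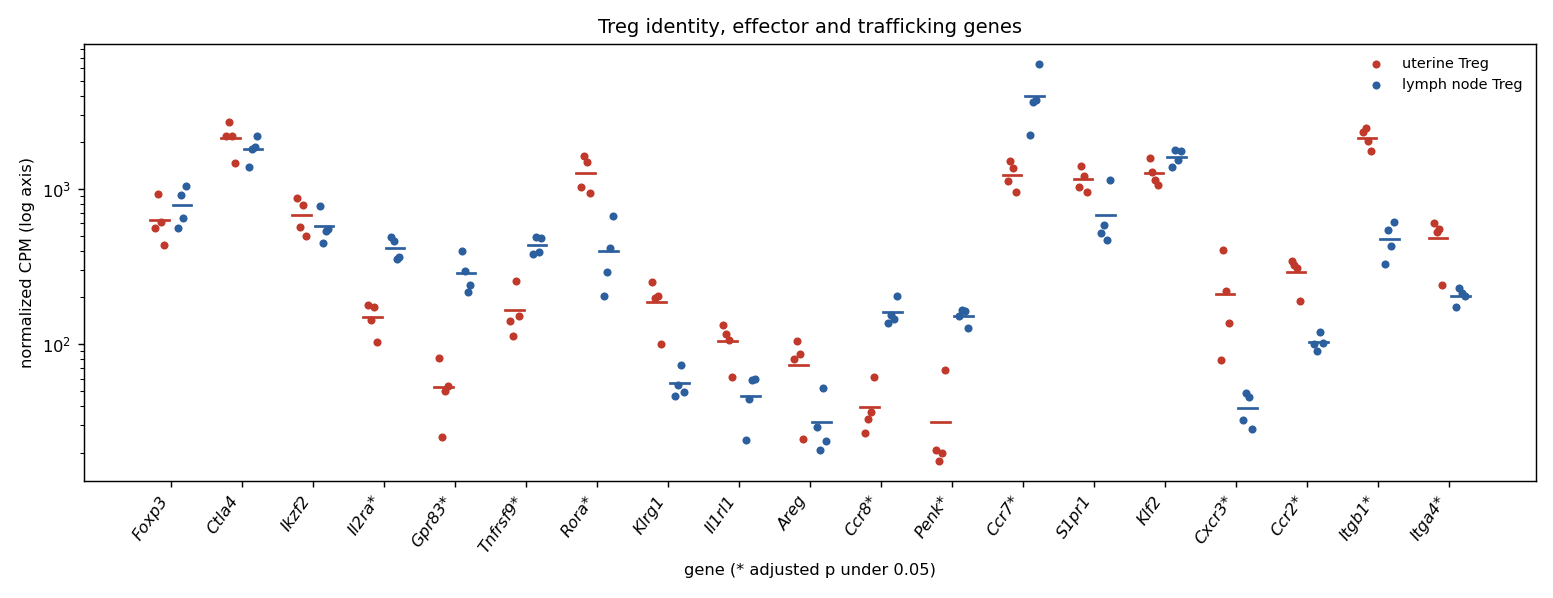
Normalized CPM on a log axis for 19 genes of Treg identity, effector function and trafficking; points are libraries, 4 a group, bars are group means and an asterisk marks an adjusted p under 0.05. Foxp3, Ctla4 and Ikzf2 overlap between the groups, whereas Il2ra, Gpr83, Tnfrsf9, Ccr8, Penk and Ccr7 lie lower and Rora, Cxcr3, Ccr2, Itgb1 and Itga4 higher in uterine Treg.

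Calcium-binding S100 proteins, annexins and their partners formed the list with the most called members. Of 21 genes listed, 19 were expressed. In uterine Treg 9 were higher (S100a4, S100a6, S100a10, S100a11, Lgals3, Anxa2, Crip1, Ahnak and Tagln2) and 0 were lower, where 0.932% of all expressed genes were higher. The median log2 fold change was 1.26, all 19 estimates were above 0, and under scaling on the whole table the median was 0.93 with 16 above 0. Without uterine Treg 5 the median was 1.15.

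Most S100 proteins change shape on binding calcium, and S100a10 and S100a11 form complexes with annexins, which bind membranes. S100a11 (chromosome 3, 93520488 to 93526287, GRCm38) had the lowest p of the comparison. Its level was 358, 340, 313 and 266 CPM in uterine Treg and 116, 69.0, 76.0 and 64.9 CPM in node Treg, and all uterine libraries were well above the highest node library. The log2 fold change was 1.96 (SE 0.22, adjusted p = 0.000197), and the call stood without any 1 library. S100a10, the usual partner of Anxa2, was at 1048, 1398, 1174 and 792 CPM against 614, 359, 391 and 267 CPM. Uterine Treg 5 and node Treg 1 came nearest to each other, and the log2 fold change was 1.44 (SE 0.32, adjusted p = 0.0319), a call held in 2 of the 8 fits with 1 library left out. Anxa2 (chromosome 9, 69453620 to 69491795) was at 279, 242, 300 and 174 CPM against 99.2, 63.5, 58.4 and 66.9 CPM. The groups were well apart (log2 fold change 1.78, SE 0.26, adjusted p = 0.00288).

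S100a6 and S100a4 lie near each other on chromosome 3. S100a6 (90612882 to 90624181) was at 296, 487, 466 and 266 CPM in uterine Treg and at 103, 52.5, 78.8 and 44.2 CPM in node Treg (log2 fold change 2.44, SE 0.37, adjusted p = 0.00309). S100a4 (90603771 to 90606045), known for its link to motility and to memory T cells, was at 37.8, 69.2, 75.9 and 37.7 CPM against 10.7, 4.83, 5.56 and 3.68 CPM. The lowest uterine library was far above the highest node library, and the log2 fold change was 3.12 (SE 0.56, adjusted p = 0.00761). Of the exonic bases of S100a4, 51.7% overlap the gene model Gm42674 on the same strand, so its count may be shared with that model.

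Among the other members, Lgals3, which encodes galectin 3, was at 49.8 ± 5.17 CPM against 9.54 ± 1.57 CPM (log2 fold change 2.37, SE 0.48, adjusted p = 0.0199). Its call was held in 3 of the 8 fits with a library left out and was not made by limma voom (adjusted p = 0.104). In CD4conv it averaged 361 ± 276 CPM. Crip1, a small LIM-domain protein, was at 725 ± 245 against 211 ± 76.6 CPM (1.78, adjusted p = 0.045). Ahnak, a large scaffold that binds S100a10 and annexin 2, was at 826 ± 149 against 358 ± 39.8 CPM (1.21, adjusted p = 0.0209). Tagln2, an actin-bundling protein, was at 676 ± 157 against 331 ± 66.2 CPM (1.03, adjusted p = 0.0377). The 10 members below the threshold ranged from 0.11 to 1.41. Lgals1, galectin 1, was the highest of them at 524 ± 141 against 196 ± 100.3 CPM (1.41, adjusted p = 0.0915), and Anxa1 varied from 6.55 CPM in uterine Treg 1 to 194 CPM in uterine Treg 5.

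**Figure D4:**
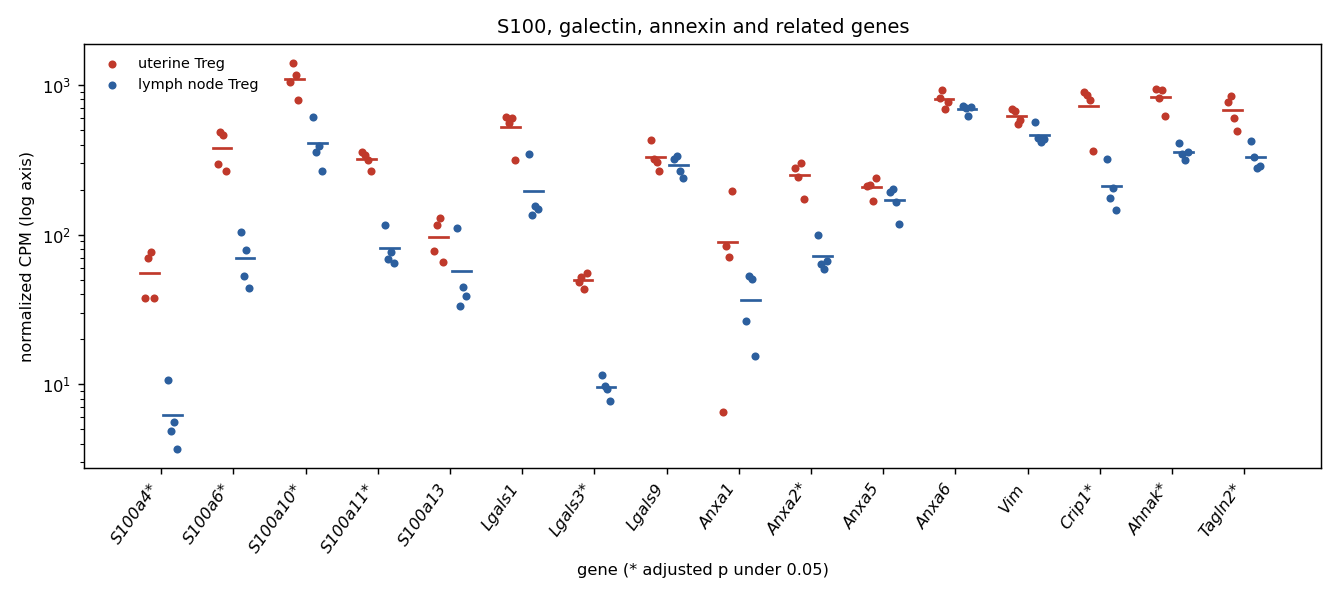
Normalized CPM on a log axis for 16 genes of the S100, galectin and annexin list; points are libraries, 4 a group, bars are group means and an asterisk marks an adjusted p under 0.05. The uterine libraries of S100a4, S100a6, S100a11, Lgals3 and Anxa2 lie apart from the node libraries, whereas those of Anxa5, Anxa6 and Lgals9 overlap them.

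The promoters of S100a11, Anxa2 and Glrx are printed because they are the ones among the higher genes that hold the AP-1 letters TGANTCA, a motif bound by dimers of Fos and Jun, and those of S100a4 and S100a6 because these genes had the largest fold changes of the family and hold no match. Each window runs 5′ to 3′ from 250 bases before to 50 after the RefSeq start on the plus strand of GRCm38.p6, and capitals mark the matches. In order, the windows are chr3:93520246-93520545, chr9:69453433-69453732, chr13:75839635-75839934, chr3:90603520-90603819 and chr3:90612644-90612943.
S100a11: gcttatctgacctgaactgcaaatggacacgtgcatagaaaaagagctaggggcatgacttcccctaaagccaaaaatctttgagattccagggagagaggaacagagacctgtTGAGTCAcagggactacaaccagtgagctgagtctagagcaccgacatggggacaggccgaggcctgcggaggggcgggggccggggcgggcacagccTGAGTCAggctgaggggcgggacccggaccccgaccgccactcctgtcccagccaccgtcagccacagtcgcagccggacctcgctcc
Anxa2: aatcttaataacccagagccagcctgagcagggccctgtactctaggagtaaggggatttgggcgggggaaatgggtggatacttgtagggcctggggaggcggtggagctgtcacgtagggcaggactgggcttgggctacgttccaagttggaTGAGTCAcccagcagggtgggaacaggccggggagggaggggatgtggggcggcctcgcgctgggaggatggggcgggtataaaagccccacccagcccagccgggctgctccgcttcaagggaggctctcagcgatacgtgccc
Glrx: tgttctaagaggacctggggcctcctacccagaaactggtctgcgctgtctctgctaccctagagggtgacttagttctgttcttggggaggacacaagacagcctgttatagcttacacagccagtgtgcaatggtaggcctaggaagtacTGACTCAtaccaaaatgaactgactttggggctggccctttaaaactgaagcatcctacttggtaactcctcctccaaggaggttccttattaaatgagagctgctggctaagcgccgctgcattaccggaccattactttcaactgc
S100a4: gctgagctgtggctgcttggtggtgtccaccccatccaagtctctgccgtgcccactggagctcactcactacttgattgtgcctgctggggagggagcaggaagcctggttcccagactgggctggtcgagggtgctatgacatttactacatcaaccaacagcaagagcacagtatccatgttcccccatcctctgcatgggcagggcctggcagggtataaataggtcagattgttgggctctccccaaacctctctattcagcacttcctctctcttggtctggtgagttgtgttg
S100a6: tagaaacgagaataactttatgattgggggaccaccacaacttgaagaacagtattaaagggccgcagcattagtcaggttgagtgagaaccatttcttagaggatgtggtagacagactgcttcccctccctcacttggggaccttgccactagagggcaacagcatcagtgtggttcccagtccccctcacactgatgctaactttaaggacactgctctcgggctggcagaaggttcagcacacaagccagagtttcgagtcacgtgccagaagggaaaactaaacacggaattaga

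S100a11 held 2 matches, the nearer to the 5′ end at -136 from the start, while Anxa2 held 1 at -95 and Glrx 1 at -98. RefSeq windows were matched for 50 of the 61 called genes. The AP-1 letters, which read as the same motif on both strands, occurred in 3 of the 36 windows of higher genes (8.33%) and in 0 of the 14 of lower genes. They occurred in 183 of the 3780 windows of expressed genes (4.84%) and in 7.93% of 27025 windows of all genes. In all, 8 motifs were searched on both strands. GCGNGGGCG, bound by Egr factors, occurred in 6 of the 36 windows of higher genes (16.7%: Crip1, Crip2, Fosl2, Pdlim1, Rfk and Tent5a) and in 1 of the 14 of lower genes (7.14%), beside 9.68% of those of expressed genes. A motif like that of NF-kB occurred in 38.9% of higher, 57.1% of lower and 25.5% of expressed windows. TGTGGT, of Runx factors, occurred in 16.7%, 7.14% and 13.3%, and CCGGAAGT, of Ets factors, in 2.78%, 0% and 10.6%. TGACGTCA (CRE), TTCNNNGAA (STAT) and GTAAACA (Fox) occurred in 0 of the 36 and 0 of the 14, beside 3.81%, 6.72% and 2.78% of expressed windows. Differences between these shares were not tested, and a match is a stretch of letters only.

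Adhesion and migration genes differed in both directions. Of 17 integrin chains 7 were expressed, of which 2 were higher and 0 lower, where 0.932% of all expressed genes were higher and 0.36% lower. Their median was -0.16, and 0.0041 without uterine Treg 5. Itgb1, the beta 1 chain, had the higher level of the pair at 2331, 2460, 2037 and 1749 CPM in uterine Treg against 329, 543, 430 and 614 CPM in node Treg. No uterine library came near the node libraries, and the log2 fold change was 2.16 (SE 0.33, adjusted p = 0.00337). Itga4, the alpha 4 chain that pairs with beta 1 to bind fibronectin and Vcam1, was at 602, 527, 553 and 242 CPM against 173, 229, 214 and 203 CPM. Uterine Treg 5 lay just above the node libraries. The log2 fold change was 1.23 (SE 0.26, adjusted p = 0.0215), and without uterine Treg 5 it was 1.45 (adjusted p = 0.00399). That was the 1 fit of the 8 with a library left out in which the Itga4 call was held.

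Of 19 chemokine receptors, 11 were expressed, and 2 were higher and 2 lower in uterine Treg (over all expressed genes, 0.932% and 0.36%), with a median of 0.55. Cxcr3, a receptor for interferon-induced chemokines, was at 78.6, 402, 221 and 138 CPM in uterine and at 32.2, 48.3, 45.4 and 28.4 CPM in node Treg. Uterine values were spread widely, lowest in uterine Treg 1 and highest in uterine Treg 2, and all stood above the node values (log2 fold change 2.46, SE 0.39, adjusted p = 0.00337). Ccr2, a receptor for monocyte chemoattractants, was at 342, 321, 309 and 191 CPM against 99.8, 89.7, 121 and 102 CPM. Its log2 fold change was 1.5 (SE 0.34, adjusted p = 0.0359), and the call was held in 1 of the 8 fits with a library left out.

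Ccr7, the receptor that guides T cells into lymph nodes, was at 1127, 1510, 1359 and 952 CPM in uterine Treg and at 2232, 3619, 3728 and 6406 CPM in node Treg. The node values were spread widely, yet each exceeded all uterine values, and the log2 fold change was -1.69 (SE 0.37, adjusted p = 0.0314). This call was held in 1 of the 8 fits. Ccr8, a receptor carried by many tissue and activated Treg, was at 26.7, 32.9, 36.4 and 61.3 CPM against 137, 154, 145 and 204 CPM (log2 fold change -2.03, SE 0.41, adjusted p = 0.0198). All uterine values of Ccr8 lay below the node values, uterine Treg 5 being the nearest. Its call was held in 2 of the 8 fits.

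Most other genes of recirculation did not pass the test. In the list of 22 naive and recirculation genes, 20 were expressed, 1 was higher (Slamf6) and 1 lower (Ccr7), with a median of 0.04. Over all expressed genes 0.932% were higher and 0.36% lower. The egress receptor S1pr1 was at 1154 ± 205 against 678 ± 311 CPM (0.77, adjusted p = 0.439). The quiescence factor Klf2 was at 1267 ± 237 against 1615 ± 187 CPM (-0.35, adjusted p = 0.691), and Tcf7 had a fold change of 0.07 (-0.68 to 0.83). Il7r, the interleukin 7 receptor, was at 197 ± 70.3 against 109 ± 16.0 CPM (0.87, adjusted p = 0.16).

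Slamf6, a homotypic receptor of lymphocytes, was higher at 661 ± 108 against 248 ± 53.0 CPM (log2 fold change 1.42, SE 0.27, adjusted p = 0.0109), and its call stood in all 8 fits. Of 18 tissue residency genes 11 were expressed and 0 were called, where 1.29% of all expressed genes were called. Their median was -0.17, and 4 of the 11 were above 0, in a range of -1.24 to 1.15. The residency markers Cd69 (604 ± 191 against 857 ± 139 CPM, log2 fold change -0.50, interval -1.13 to 0.12) and Itgae, the CD103 chain (245 ± 16.7 against 296 ± 42.3 CPM, -0.27, interval -1.12 to 0.57), had estimates below 0.

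Myo1f, a myosin of leukocytes that moves along actin, was higher in uterine Treg, at 417, 338, 480 and 404 CPM in uterine and 57.4, 98.7, 89.9 and 113 CPM in node Treg. The groups were far apart, and the log2 fold change was 2.19 (SE 0.32, adjusted p = 0.00288). It was the 1 called of 30 expressed actin cytoskeleton genes, whose median was 0.16, where 0.932% of all expressed genes were higher. In the same list Actb, beta-actin itself, was at 6287, 3524, 3698 and 2897 CPM against 8042, 7752, 6578 and 8847 CPM, below the node values in every uterine library, and did not pass (-0.93, adjusted p = 0.101). Outside that list, and named after their values were seen, Pdlim1 (134 ± 62.4 against 46.8 ± 7.00 CPM, log2 fold change 1.53), Rflnb (79.8 ± 23.4 against 28.1 ± 6.75 CPM, 1.5) and Gmfg (215 ± 36.6 against 92.7 ± 32.2 CPM, 1.21) were also higher. Their products bind alpha-actinin, filamin and the Arp2/3 complex. Emb, the surface glycoprotein embigin, was at 607 ± 157 against 238 ± 94.7 CPM (1.35, adjusted p = 0.032). In the other direction, Vav1, a guanine nucleotide exchange factor that links the antigen receptor to actin, was at 148 ± 33.7 against 304 ± 49.8 CPM (-1.04, adjusted p = 0.0492).

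The list of effector and tissue Treg genes held members that moved both ways. Of 26 listed, 21 were expressed, 2 were higher (Rora and Glrx) and 3 lower (Tnfrsf9, Ccr8 and Penk), where 0.932% of all expressed genes were higher and 0.36% lower. The median was 1.03, and 16 of 21 were above 0. Rora, a nuclear receptor described in Treg of skin and fat, was at 1024, 1631, 1485 and 939 CPM in uterine Treg and 206, 293, 414 and 671 CPM in node Treg. Node Treg 5 came closest to the uterine libraries, and the log2 fold change was 1.68 (SE 0.36, adjusted p = 0.0242). The Rora call was held in 3 of the 8 fits with a library left out. Glrx, the thiol reductase glutaredoxin whose promoter is printed above, was at 202, 205, 285 and 161 CPM against 85.9, 88.4, 72.3 and 81.3 CPM (1.38, SE 0.23, adjusted p = 0.00489).

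Several markers of this group were higher in every uterine library without passing the test. Klrg1, an inhibitory receptor of terminally differentiated Treg, was at 250, 199, 204 and 100 CPM in uterine and 46.5, 54.5, 73.3 and 48.9 CPM in node Treg. The groups did not overlap, but the log2 fold change of 1.76 had an interval of 0.37 to 3.15 and an adjusted p of 0.284. Il1rl1, the interleukin 33 receptor ST2, was at 133, 116, 107 and 61.3 CPM against 24.1, 44.2, 58.4 and 59.6 CPM (1.18, adjusted p = 0.109). Il18r1, the interleukin 18 receptor, was at 116 ± 24.8 against 50.2 ± 10.7 CPM (1.22, adjusted p = 0.0606). The growth factor Areg overlapped, since uterine Treg 5 had 24.5 CPM while the other uterine libraries had 80.6 to 104 CPM (1.25, adjusted p = 0.392). The costimulatory receptor Icos was at 810 ± 264 against 421 ± 86.4 CPM (0.94, adjusted p = 0.229), and Gata3 was at 310 ± 100.4 against 280 ± 28.4 CPM (0.15, interval -0.38 to 0.68).

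Tnfrsf9, the costimulatory receptor 4-1BB that activated Treg carry, was lower in uterine Treg at 142, 113, 256 and 151 CPM against 382, 488, 395 and 486 CPM. Uterine Treg 3 was the highest of its group and still below the node libraries. The log2 fold change was -1.41 (SE 0.25, adjusted p = 0.00761). Penk, the precursor of enkephalins, was at 20.6, 17.7, 19.8 and 67.9 CPM against 152, 166, 162 and 126 CPM. Uterine Treg 5 stood above the other 3 of its group, and the log2 fold change was -2.29 (SE 0.51, adjusted p = 0.0319). It was -2.97 without that library (adjusted p = 0.00645) or -3.02 without uterine Treg 1 and 5 (adjusted p = 0.0362). Of the 8 fits with 1 library left out, that without uterine Treg 5 was the 1 that held the Penk call. The call was also lost without the 3 libraries of highest background (adjusted p = 0.118). The suppressive cytokine gene Il10 was at 20.1, 35.9, 40.3 and 10.4 CPM against 57.8, 82.8, 94.6 and 57.6 CPM. These groups did not overlap either, and the test was not passed (-1.44, interval -2.57 to -0.32, adjusted p = 0.274).

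Of 27 AP-1, Egr and Nr4a genes 23 were expressed, 2 were higher (Egr1 and Fosl2) and 0 lower. Over all expressed genes 0.932% were higher and 0.36% lower. The median of the 23 was 0.20, and -0.08 under scaling on the whole table. Egr1, a transcription factor induced within minutes of a stimulus, was at 694, 400, 358 and 1702 CPM in uterine Treg and 159, 166, 116 and 193 CPM in node Treg. Uterine Treg 5 held the highest level. The log2 fold change was 2.31 (SE 0.50, adjusted p = 0.0287), and 1.61 without uterine Treg 5 (adjusted p = 0.0829), so the call ended there. Without uterine Treg 1 and 5 it was 1.25 (adjusted p = 0.393). Fosl2, an AP-1 subunit, was at 176 ± 30.7 against 69.6 ± 17.7 CPM (1.33, adjusted p = 0.0395).

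Atf3, a stress-induced AP-1 partner, was at 366, 346, 295 and 801 CPM against 27.3, 75.2, 82.5 and 61.9 CPM and just missed the threshold (log2 fold change 2.89, SE 0.68, adjusted p = 0.0505). Fosb was at 380 ± 123 against 171 ± 35.7 CPM (1.15, adjusted p = 0.108). Of 20 heat shock proteins and chaperones, another group that responds to stress, 14 were expressed, 0 were called and the median was -0.28. Over all expressed genes 1.29% were called. Hsp90ab1, a constitutive chaperone, was at 1001 ± 162 against 1864 ± 487 CPM (-0.90, adjusted p = 0.204).

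Dusp2, a nuclear phosphatase that switches off MAP kinases, was lower in uterine Treg, at 212, 201, 122 and 107 CPM against 694, 638, 543 and 478 CPM in node Treg. The groups were far apart, and the log2 fold change was -1.87 (SE 0.30, adjusted p = 0.00373), a call held in all 8 fits. It was the 1 called member of 12 expressed dual-specificity phosphatases and feedback genes, whose median was -0.66, where 0.36% of all expressed genes were lower. Ptpn6, the phosphatase SHP-1, was at 125 ± 18.9 against 316 ± 55.1 CPM (-1.34, adjusted p = 0.0492), though all 8 fits with a library left out lost this call. Tsc22d3, the glucocorticoid-induced protein GILZ, was at 396 ± 87.8 against 963 ± 209 CPM (-1.28, adjusted p = 0.0205). The glucocorticoid receptor gene Nr3c1 was at 375 ± 48.3 against 219 ± 23 CPM and did not pass (0.78, adjusted p = 0.0626).

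Matk, a kinase that restrains Src family kinases, was higher in uterine Treg at 251 ± 57.3 against 97.6 ± 27.9 CPM (log2 fold change 1.36, adjusted p = 0.0198). Ifngr1, a chain of the interferon gamma receptor, was at 1634, 2141, 1758 and 1273 CPM against 322, 598, 647 and 959 CPM (1.43, SE 0.32, adjusted p = 0.0319). Node Treg 5 was the nearest to the uterine values. Of 38 interferon-stimulated genes 25 were expressed and 0 were called, with a median of -0.11, where 1.29% of all expressed genes were called. Of 22 genes of the SOCS, PIM and STAT families 17 were expressed and 0 called, although Socs1, a feedback inhibitor of cytokine receptors, was at 41.2 ± 28.4 against 136 ± 30.4 CPM without overlap (-1.72, adjusted p = 0.109).

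Cdc25b, a phosphatase that activates cyclin-dependent kinases, was higher in uterine Treg, at 430, 611, 483 and 414 CPM against 93.2, 101, 99.2 and 70.3 CPM. The lowest uterine library was far above the highest node library (log2 fold change 2.42, SE 0.38, adjusted p = 0.00337). Cenpa, the histone of the centromere, was at 321 ± 97.6 against 137 ± 55.5 CPM (1.23, adjusted p = 0.0476). In the list of 31 proliferation genes 11 were expressed, 0 were called and the median was -0.08, where 1.29% of all expressed genes were called. Mki67, the standard marker of cycling cells, fell outside the expressed genes and was at 89.2 ± 44.0 against 53.9 ± 16.0 CPM.

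Chd7, a chromatin remodeller, was at 496 ± 107 against 172 ± 66.6 CPM (log2 fold change 1.53, adjusted p = 0.0077). The linker histone genes H1f0 (182 ± 27.6 against 60.5 ± 13.3 CPM, 1.58, adjusted p = 0.0479) and Hist1h1c (100.2 ± 7.99 against 43.1 ± 15.3 CPM, 1.21, adjusted p = 0.028) were higher too. Near-identical copies of such genes may share reads. Tent5a, a poly(A) polymerase, was at 272 ± 45.3 against 88.2 ± 13.5 CPM (1.63, adjusted p = 0.0196). Ppil1, a prolyl isomerase of the spliceosome, was at 198, 397, 327 and 249 CPM against 73.2, 79.4, 59.3 and 99.7 CPM (1.91, SE 0.31, adjusted p = 0.00373). All 4 uterine values lay above the node values, and the call held in all 8 fits.

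Slc4a7, a sodium bicarbonate cotransporter, was higher in uterine Treg, at 322, 435, 239 and 420 CPM against 81.3, 104, 86.2 and 108 CPM (log2 fold change 1.90, SE 0.31, adjusted p = 0.00373). Dgat1, which makes triglyceride, was at 212 ± 57.7 against 66.8 ± 10.4 CPM (1.67, adjusted p = 0.0215). Tkt, a transketolase of the pentose phosphate pathway, was at 422 ± 32.4 against 188 ± 23.8 CPM (1.16, adjusted p = 0.0441), and Rfk, riboflavin kinase, at 369 ± 79.9 against 171 ± 31.7 CPM (1.11, adjusted p = 0.028). Among called genes the largest fall was that of Eno3, the enolase isoform known from muscle, which was at 0, 5.98, 15.8 and 2.83 CPM in uterine Treg and at 156, 110, 82.5 and 99.7 CPM in node Treg. Uterine libraries held 49 counts of it in all and node libraries 1279 (log2 fold change -4.21, SE 0.85, adjusted p = 0.0198). Without uterine Treg 1 and 5 the fold change was -3.41 and the call was lost (adjusted p = 0.0887).

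Tbc1d4, which controls traffic of glucose transporter vesicles, was at 116, 108, 111 and 113 CPM in uterine Treg and 267, 247, 253 and 317 CPM in node Treg. Its replicates agreed closely within each group (log2 fold change -1.28, SE 0.23, adjusted p = 0.00761). The mitochondrial protein gene Chchd10 was at 25.1 ± 18.1 against 103 ± 39.8 CPM (-2.05, adjusted p = 0.0359). Slc35d1, a nucleotide sugar transporter, was at 144 ± 39.1 against 376 ± 152 CPM (-1.39, adjusted p = 0.0215). Glycolysis (15 expressed of 20, median -0.01) and the nuclear-encoded respiratory chain (75 of 84, median -0.10) had 0 called genes. Over all expressed genes 1.29% were called.

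Cytosolic ribosomal protein genes leaned lower in uterine Treg, with 3 of 76 expressed members above 0 and a median of -0.52. However, 1 alone was called, Rpl15, at 101 ± 28.2 against 221 ± 40.5 CPM (-1.13, adjusted p = 0.0492), where 0.36% of all expressed genes were lower. The ribosomal protein genes summed to 44192 CPM in node Treg 1, 21941 to 29684 CPM in the other node libraries and 18101 to 22998 CPM in uterine Treg. Without node Treg 1 the median was -0.23. In that library the 50 most abundant genes took 23.3% of counts, against 11.4 to 12.2% in the other node libraries, and its part in the lean was not tested. Rpl15 has near-identical copies in the genome that may share its reads.

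Most of the remaining called genes belong to no list used here. Fam129a, a stress-related protein also called Niban, was at 680, 666, 522 and 462 CPM in uterine and 195, 213, 235 and 200 CPM in node Treg (log2 fold change 1.47, SE 0.23, adjusted p = 0.00337), and its call held in all 8 fits. Ramp3, a receptor chaperone that shapes adrenomedullin receptors, was at 207 ± 76.7 against 52.2 ± 29.6 CPM (1.98, adjusted p = 0.0479). Esm1, an endothelial proteoglycan by its usual description, was at 70, 77.9, 87.7 and 60.4 CPM against 5.33, 15.2, 38.0 and 13.4 CPM (2.11, adjusted p = 0.0359). Crip2, of the same family as Crip1, was at 23.7, 43.0, 119 and 125 CPM against 14.7, 18.6, 25.0 and 18.1 CPM, with uterine Treg 1 inside the node range (2.02, adjusted p = 0.0441). Prr13 and Fryl were higher by 1.24 and 0.93 (adjusted p = 0.0319 and 0.0198). Ctsw, a cathepsin of cytotoxic lymphocytes, was lower at 54.6 ± 18.3 against 174 ± 13.9 CPM (-1.67, adjusted p = 0.0209), as was the ubiquitin ligase Znrf1 at 173 ± 42.4 against 410 ± 56.8 CPM (-1.25, adjusted p = 0.0205). Of the exonic bases of Znrf1, 32.0% overlap Ldhd on the opposite strand, and the kits do not mark strand.

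Some members of the gene lists had groups that did not overlap and missed the threshold; the 6 named here were chosen after their values were seen, from list members of lowest p, and many other genes did the same. Pmepa1, an inhibitor and target of TGF-beta signalling, was at 10.1, 26.2, 45.8 and 49.1 CPM in uterine Treg and at 201, 117, 106 and 101 CPM in node Treg (log2 fold change -2.02, adjusted p = 0.0651). Rgs10 and Rgs16, which speed the shut-off of G protein signals, had log2 fold changes of -1.45 (adjusted p = 0.109) and -1.24 (adjusted p = 0.118). Tap1, a peptide transporter of antigen presentation, was at 251 ± 84 against 491 ± 6.40 CPM (-0.96, adjusted p = 0.0925). In the other direction, Dock2, a Rac activator of migrating lymphocytes, was at 1396 ± 254 against 677 ± 154 CPM (1.04, adjusted p = 0.108), and the transcription factor Fli1 at 167 ± 35.3 against 87.8 ± 11 CPM (0.93, adjusted p = 0.0925).

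Among called genes the highest fold changes were those of Fcer1g and Tyrobp, adaptor proteins of innate immune receptors that macrophages and natural killer cells express in abundance. Fcer1g was at 17.6, 4.14, 17.4 and 32.1 CPM in uterine and 0.213, 0.690, 0.927 and 1.00 CPM in node Treg, from 109 and 6 counts. Tyrobp was at 6.04, 20.2, 7.11 and 26.4 CPM against 1.07, 0, 1.85 and 1.00 CPM, from 137 and 10 counts. Both were thus low in every library and higher in all uterine ones. The log2 fold changes were 4.73 (SE 0.95, adjusted p = 0.0198) and 3.90 (SE 0.73, adjusted p = 0.0109), and without uterine Treg 5 they were 4.29 (adjusted p = 0.0444) and 3.58 (adjusted p = 0.0269). In CD4conv they averaged 347 and 1170 CPM, and both entered the genes tested through libraries outside the comparison. Neither was called by limma voom (adjusted p = 0.408 and 0.111), and Tyrobp was not called by edgeR in the 8 libraries alone (adjusted p = 0.08). Without uterine Treg 1 and 5, Fcer1g was at 3.94 and lost the call (adjusted p = 0.161).

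Marker lists of several other cell types had their highest sums in uterine Treg 5. The summed level of 18 macrophage and dendritic cell markers was 534, 560, 765 and 2470 CPM in uterine Treg and 363 to 615 CPM in node Treg. That of 12 fibroblast and stromal markers was 290, 92.0, 707 and 2989 CPM against 53.3 to 539 CPM. The 12 epithelial markers summed to 72.0, 44.6, 145 and 1800 CPM against 31.6 to 109 CPM. By these sums uterine Treg 5 stood alone in all 3 lists. Uterine Treg 1, 2 and 3 were within or near the range of the node libraries, uterine Treg 3 being the highest of these 3 in each list. In 10 erythroid and platelet markers uterine Treg 3 and 5 were alike at 443 CPM each, with uterine Treg 1 and 2 at 86.6 and 27.1 CPM and node Treg at 12.4 to 67.7 CPM. The 13 endothelial markers summed to 299, 274, 657 and 1040.5 CPM against 157 to 536 CPM, so uterine Treg 3 lay above the node range there too. Estimated background was 16.8, 11.6, 33.9 and 34.9% of counts in uterine Treg and 9.22, 26.1, 38.6 and 16.6% in node Treg. Within each group the stromal, epithelial and endothelial sums rose in the order of that share. The macrophage sums did so with 1 close exception in each group. These were 534 against 560 CPM in uterine Treg 1 and 2, and 363 against 370 CPM in node Treg 5 and 1. The part of background in these sums was not tested. Single genes high in uterine Treg 5 were Apoe at 1014 CPM (105 to 132 in the other uterine libraries), the collagen Col3a1 at 681 CPM (13.8 to 106) and the keratin Krt8 at 324 CPM (0.504 to 4.74). In node Treg, Apoe was at 7.36 to 16.7 CPM, below every uterine library, while Col3a1, at 5.76 to 38.9 CPM, overlapped with the uterine libraries.

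Of these markers, 12 of 18 macrophage, 1 of 12 stromal and 3 of 12 epithelial ones were among the expressed genes tested, Col3a1 lying outside. EdgeR called 0 of them, while 6, 1 and 2 were higher at an unadjusted p under 0.05, as were 321 of all 4719 expressed genes. DESeq2 called 3 of these markers, the macrophage genes Apoe, C1qb and Cd14. The 12 macrophage genes had a median log2 fold change of 2.28, and 11 were above 0. Without uterine Treg 5 their median was 1.37. Over all expressed genes the median was 0.05 with that library and 0.02 without it. Apoe, C1qb and Cd14 averaged 3353, 255 and 267 CPM in CD4conv, whose libraries entered the choice of the genes tested. In the fit of the whole table all 18 macrophage markers were tested, and their median was 1.25, beside -0.06 over all genes there. Apoe had an adjusted p of 0.142 in edgeR and Krt8 of 0.259. Without uterine Treg 5, 50 of the 61 genes kept the call, and the 11 that lost it were Ccr7, Cenpa, Crip2, Egr1, Fosl2, Gpr83, H1f0, Ptpn6, Rpl15, Tkt and Vav1. Of 13 natural killer and cytotoxic markers 6 were tested and 2 were higher, Fcer1g and Tyrobp, where 0.932% of all expressed genes were higher. The summed levels of these 13 markers overlapped (113 to 222 CPM in uterine and 123 to 195 CPM in node Treg). So did those of 14 B cell markers (673 to 947 and 471 to 772 CPM). The class II gene H2-Ab1, which antigen-presenting cells carry, was at 99.2, 39.3, 104 and 72.6 CPM against 23, 11, 15.8 and 20.1 CPM (log2 fold change 2.13, adjusted p = 0.0651). Another gene of the class II list, H2-Ob, went the other way at 68.8 ± 27.3 against 160 ± 13.2 CPM without overlap (-1.21, adjusted p = 0.252). The 10 genes of that list summed to 664, 286, 552 and 671 CPM in uterine and 361 to 425 CPM in node Treg, so the sums overlapped. The part of RNA from such cells in the genes called was not tested. In bulk libraries, more cells of a type and more RNA per cell cannot be told apart.

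**Figure D5:**
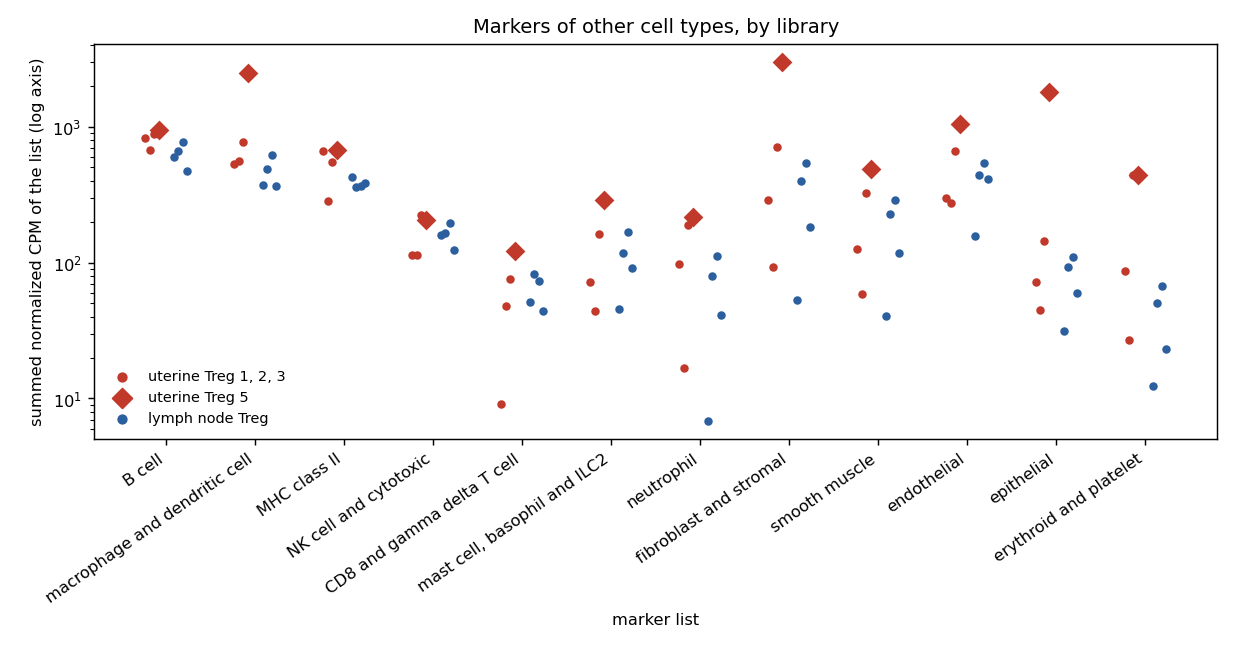
Summed normalized CPM on a log axis for 12 marker lists of other cell types; each point is a library, with uterine Treg 5 drawn as a red diamond, the other uterine libraries in red and node libraries in blue. The diamond stands above all other libraries for the macrophage, fibroblast and epithelial lists.

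Levels in the uterine cells of the other sequencing batch are given beside these values without a test, since batch and group cannot be told apart there. Uterine Treg of early pregnancy averaged 353 ± 8.44 CPM for S100a11, 432 ± 148 for S100a6, 274 ± 21.9 for Anxa2 and 1738 ± 772 for Itgb1. The same libraries averaged 210 ± 42.7 CPM for Cxcr3, 1212 ± 203 for Rora, 926 ± 418 for Ccr7, 211 ± 47.9 for Il2ra, 216 ± 41.5 for Tnfrsf9 and 149 ± 53.4 for Dusp2. Il1rl1 averaged 247 CPM there and 104 CPM in the non-pregnant uterine Treg. In uterine CD4conv, S100a11 averaged 187 ± 21.0 CPM, Itgb1 1521 ± 651, Cxcr3 235 ± 33.9, Ccr2 602 ± 384 and Ccr7 807 ± 380 CPM, while Tnfrsf9 averaged 22 ± 2.59, Gpr83 20.1 ± 16.2 and Glrx 81.2 ± 15.7 CPM.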

How the data were processed

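RNA of sorted T cells was amplified with SMART-Seq v4 and made into Nextera XT libraries, per the labels' protocols. The submitters' processing notes name featureCounts, HISAT2, Trimmomatic, SAMtools and DESeq2, without their versions, and the build GRCm38. The authors deposited whole-number read counts per gene, not normalized, for 49585 genes, and the files of single libraries were identical to the series table in 16 of 16 cases. GENCODE M21 named 49326 of the genes. Neither kit marks strand, so reads of overlapping genes cannot be told apart.

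Expressed genes were the 4719 protein-coding genes that pass edgeR's filterByExpr with a mean share of counts over the 16 libraries above 5 times the background, taken per exonic base from 1427 genes of odorant (olfactory and vomeronasal) receptors. Their counts numbered 0.974 to 4.79 M (1e6) per library compared. They were tested in R 4.3.3 with edgeR 4.0.16 (quasi-likelihood, robust, TMM scaling; residual degrees of freedom, 12), adjusted by Benjamini-Hochberg over all of them, at a threshold of 0.05. The standard error (SE) is the absolute log2 fold change over the square root of F. CPM are per 1e6 counts of expressed genes, scaled by TMM, and serve as one scale for genes outside that set too. The median SE was 0.36. Tested on simulated data, the fit of the 4719 genes recovered 14.9% of 2-fold, 76.1% of 4-fold and 97% of 8-fold changes, with 8 false among 133 calls.

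The groups came from the labels alone. The members and the 58 gene lists were chosen with earlier results of these data known. The genes named are a fixed set of Treg and trafficking genes, the 15 highest and 15 lowest fold changes past the threshold at 20 CPM or more without overlap, the 5 most abundant called genes in each direction and up to 4 members of each list by p. The remaining called genes, and list members named for their levels, were added after their values were seen. One gene of the fixed set is not reported here. Alternatives used other filters, scalings, samples, DESeq2 1.42.0 and limma 3.58.1. Promoter windows are RefSeq sequences of GRCm38.p6.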

Additional observations from a re-analysis of the deposited data

Results flagged for a closer look

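In 216 groups of 4 values, 14 held a library whose gap to the nearest other exceeded Dixon's 95% limit for 4 samples. Chance flags about 1 in 20 groups. Uterine Treg 5 gave 5 of the 14 and node Treg 1 gave 6. Uterine Treg 5 stood high for Apoe at 1014 CPM (the others 105 to 132), Col3a1 at 681 (13.8 to 106), Krt8 at 324 (0.504 to 4.74), Atf3 at 801 (295 to 366) and Penk at 67.9 (17.7 to 20.6). Node Treg 1 stood high for Fosb at 224 CPM (146 to 159), Pmepa1 at 201 (101 to 117), Prr13 at 269 (168 to 174), Lgals1 at 346 (136 to 155) and Rgs10 at 363 (205 to 232). Its 50 most abundant genes took 23.3% of counts (11.4 to 12.2%). Uterine Treg 2 stood high for Cenpa at 466 CPM (264 to 291), node Treg 2 for Fli1 at 104 (81.5 to 83.5) and node Treg 5 for Fosl2 at 96.0 (59.4 to 61.6).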

How the results depend on the processing

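The main counts of 44 higher and 17 lower expressed genes became 0 and 0 with a background filter of 2 times (10047 genes), with the whole table and with whole-table scaling. They became 55 and 27 with a filter of 10 times (2334 genes), 91 and 44 with DESeq2, 157 and 90 with voom, and 76 and 35 with 8 libraries alone. They became 2 and 2 without the 3 libraries of highest background (node Treg 3, uterine Treg 3 and 5), and 15 and 4 without uterine Treg 1 and 5, a choice made after seeing the data. The range over leaving out 1 library was 15 to 46 higher and 4 to 16 lower. RLE scaling, the background share as covariate and the filter over 8 libraries gave 42 to 62 higher and 17 to 23 lower. In the whole table DESeq2 gave 12 and 16, and the other alternatives 0 and 0. Of the 61 genes, 61 were also called by DESeq2, 58 by voom, 58 in 8 libraries, 46 with the replicate block there, 18 without uterine Treg 1 and 5 and 3 without the 3 libraries of highest background; leaving out 1 library kept 19 to 50. Same-numbered deviations correlated at 0.14, -0.24, 0.33 and -0.09, within the range of differently numbered ones (-0.47 to 0.38). Such correlations cannot tell whether same-numbered libraries came from the same mice. With the replicate number as a block, 8 libraries gave 45 higher and 26 lower genes. Ikzf2 changed sign to -0.11 under the whole table and its scaling, Krt8 to -1.22 without the 3 libraries, and Tcf7, near 0, to -0.062 in both whole-table settings and to -0.0039 with voom, and ranged from -0.097 to 0.27 on leaving out 1 library, being negative in 4 of the 8 fits. Of the 1180 genes of lowest level 0.508% were called (median SE 0.51), against 2.71% of the 1180 of highest level (median SE 0.28); no setting varied the depth.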
